A study of Mus musculus with 16 samples.

Results

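Transcription factors that mark the neurons of the striatum were compared between 2 inbred mouse strains, with and without the antipsychotic risperidone. The set held 6 genes: Bcl11b, Foxp1, Foxp2, Meis2, Rxrg and Rarb. A probe set, the group of short array probes whose summarised brightness reports a transcript, was taken for a gene when the platform's probe-to-gene table gave that gene as its only symbol. This gave 5 of the 17097 genes that the table names in this way and 19 of the 45037 probe sets tested: 4 for Bcl11b, 7 for Foxp1, 5 for Foxp2, 2 for Meis2 and 1 for Rxrg. No probe set in the table used here named Rarb, alone or with another gene, so Rarb was not analysed here.

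Bcl11b, also called Ctip2, is a zinc-finger factor needed for the differentiation of striatal projection neurons, and in the cortex it is a factor of deep-layer projection neurons. Foxp1 and Foxp2 are forkhead factors that can bind DNA as dimers with each other, and Foxp2 is known for its part in vocal learning and motor sequences. Both are also present in cortex, where Foxp2 is a gene of deep layers, and Foxp2 is a gene of the thalamus as well. Meis2 is a homeodomain factor of the TALE class that works with Pbx partners in the developing striatum. Rxrg and Rarb are nuclear receptors of the retinoid system: the retinoic acid receptor Rarb binds its ligand and pairs on DNA with a retinoid X receptor such as Rxrg, and this pair is known for its part in expression of the dopamine receptors of the striatum.

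RNA labelled as striatum came from male mice aged 7 to 8 weeks of the strains A/J (substrain A/JOlaHsd) and DBA/2J (substrain DBA/2JRccHsd). Risperidone, an antagonist of dopamine D2 and serotonin 2A receptors, was injected into the peritoneum at 1 mg/kg once a day for 3 days. Control mice carry the label untreated, although the common treatment protocol describes injections of saline in place of the drug. Each of the 4 groups (A/J control, A/J risperidone, DBA/2J control, DBA/2J risperidone) held 4 arrays labelled as biological replicates, 16 arrays in all. All values are levels on the log2 scale, on which a difference of 1 is a doubling, and the labels name no transgene or mutation in any group.

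Some arrays stood apart from their labels or groups. Probe sets whose levels separate the strains in control mice gave each array a DBA/2J share, meaning its median position between the A/J control mean (0%) and the DBA/2J control mean (100%). A/J risperidone replicates 1, 2 and 4 lay at 27.9%, 36.2% and 39.1%, whereas A/J risperidone replicate 3 lay at 0.584%, the A/J controls at -2.30% to 0.944% and the DBA/2J controls at 96.1% to 103.2%. The DBA/2J risperidone arrays lay at 87.6% (replicate 1) to 101.6%. DBA/2J control replicate 4 correlated with other arrays at 0.970 to 0.979, against 0.986 to 0.995 among the rest. Some results that rest on these arrays are therefore also given without the 3 A/J risperidone arrays. Some are also given without 5 arrays (those 3, DBA/2J control replicate 4 and DBA/2J risperidone replicate 1). Either exclusion leaves A/J risperidone replicate 3 alone in its group, and its spread is then assumed to be that of the other groups. Differences without these arrays are not given for every result.

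The tissue label was checked against regional marker genes, by the percentile of each gene's brightest probe set among all probe sets. Such a percentile is only a rough guide, because probe sets differ in brightness at equal RNA. The dopamine receptor gene Drd2, a defining gene of striatal neurons, had levels of 3.62 to 4.90 over the 16 arrays (percentiles 11.6 to 33.3). The other dopamine receptor gene of these neurons, Drd1, lay at percentiles 53.2 to 66.3, and Ppp1r1b, which encodes the dopamine-regulated phosphatase inhibitor DARPP-32, at 56.3 to 82.4. Tbr1, a factor of cortical excitatory neurons that striatal neurons lack, had levels of 8.06 to 8.79 (percentiles 88.7 to 93.6). Of the 22 striatal projection neuron markers 19 were measured, with a median percentile of 74.96. Of these 19, 6 lay above the 90th percentile: Arpp21 (the brightest, at 98.4), Strn4, Ptpn5, Gnal, Pde1b and Adcy5. Only 1, Drd2, lay below the median. Of the 14 cortex markers 13 were measured, with a median percentile of 94.8 and 8 above the 90th. The lists are not exclusive: Mef2c, among these 8 at 98.6, is also in the list of other striatal transcription factors used below. The glutamate transporter gene Slc17a7, of cortical excitatory neurons, lay at percentiles 96.8 to 98.5 on the 16 arrays. The cortex list was not bright throughout: the cortical factor gene Emx1 had a mean level at percentile 45.5, the 1 measured cortex marker below the median. In such bulk RNA, fewer cells of a type and less RNA per cell cannot be told apart.

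**Figure D1:**
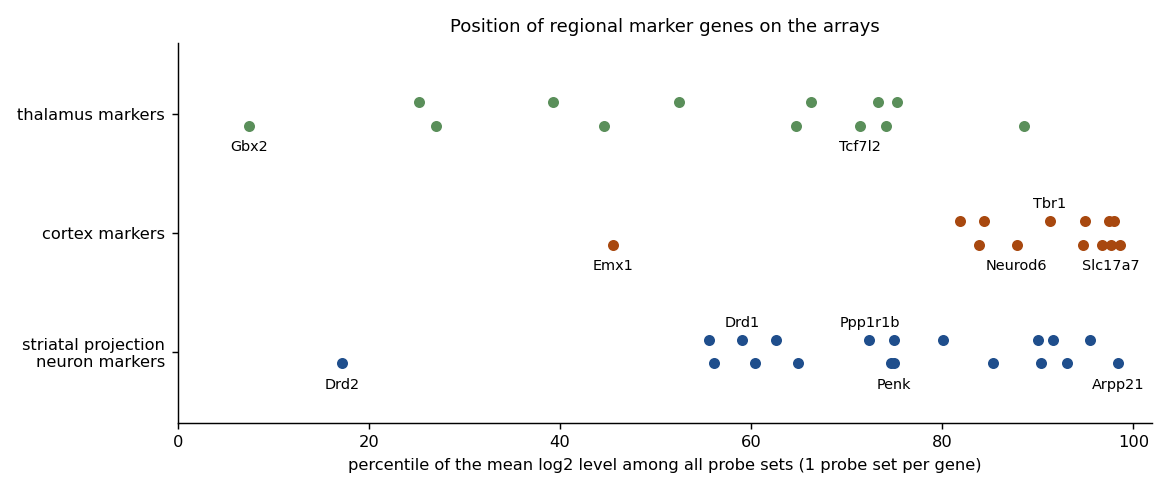
Percentile of the mean log2 level over 16 arrays among all probe sets (horizontal axis) for markers of striatal projection neurons, cortex and thalamus, with 1 point per gene, its brightest probe set. Striatal markers span percentiles 17.2 (Drd2) to 98.4. Above 90 lie 6 of the 19 measured striatal markers and 8 of the 13 measured cortex markers.

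None of the 19 probe sets passed the test of risperidone against control in either strain. At an adjusted p under 0.05 (limma, Benjamini-Hochberg over all probe sets), 0 of 19 passed in A/J, where 0% of all probe sets passed, and 0 of 19 in DBA/2J, where 0.04% did. At an unadjusted p under 0.05 the counts were 0 of 19 in A/J (5.51% of all probe sets) and 2 of 19 in DBA/2J (10.7%). In no member did the 4 risperidone arrays lie wholly above or below the 4 control arrays, while this held for 4.42% (A/J) and 4.4% (DBA/2J) of all probe sets. The differences ran from -0.17 to 0.20 in A/J, with 8 of 19 below 0 (49.3% of all probe sets), and from -0.24 to 0.23 in DBA/2J, with 14 of 19 below 0 (50.8% of all). The median difference of the members was 0.04 in A/J, against 0 over all probe sets, and -0.15 in DBA/2J, against -0.005. Probe sets of the same gene are not independent, and Foxp1 and Foxp2 have the most. Averaged over the probe sets of each gene, the DBA/2J difference was -0.17 for Foxp1 and -0.13 for Foxp2. It was 0.009 for Bcl11b, 0.02 for Meis2 and 0.15 for Rxrg, so the genes did not share a direction. All 19 of the 95% intervals lay within 1 log2 unit of 0 in both strains, and 17 (A/J) and 15 (DBA/2J) lay within 0.5. These intervals bound the size of a change between the arrays as labelled and do not show that the levels were equal. Those of A/J include the 3 A/J risperidone arrays that lay between the strains, and intervals without them are not given. Without the 3 A/J risperidone arrays, and also without the 5 arrays, the median difference of the members in A/J was 0.11. Without the 5 arrays the median in DBA/2J was -0.08, with 15 of 19 below 0. Leaving out single arrays gave 11 (without DBA/2J control replicate 1) to 15 (without DBA/2J control replicate 3) of 19 below 0. With mean levels of striatal, cortex, thalamus and choroid plexus markers in the fit, 11 of 19 were below 0 in DBA/2J, at a median of -0.02. The limit of that fit is given with Foxp1 below.

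**Figure D2:**
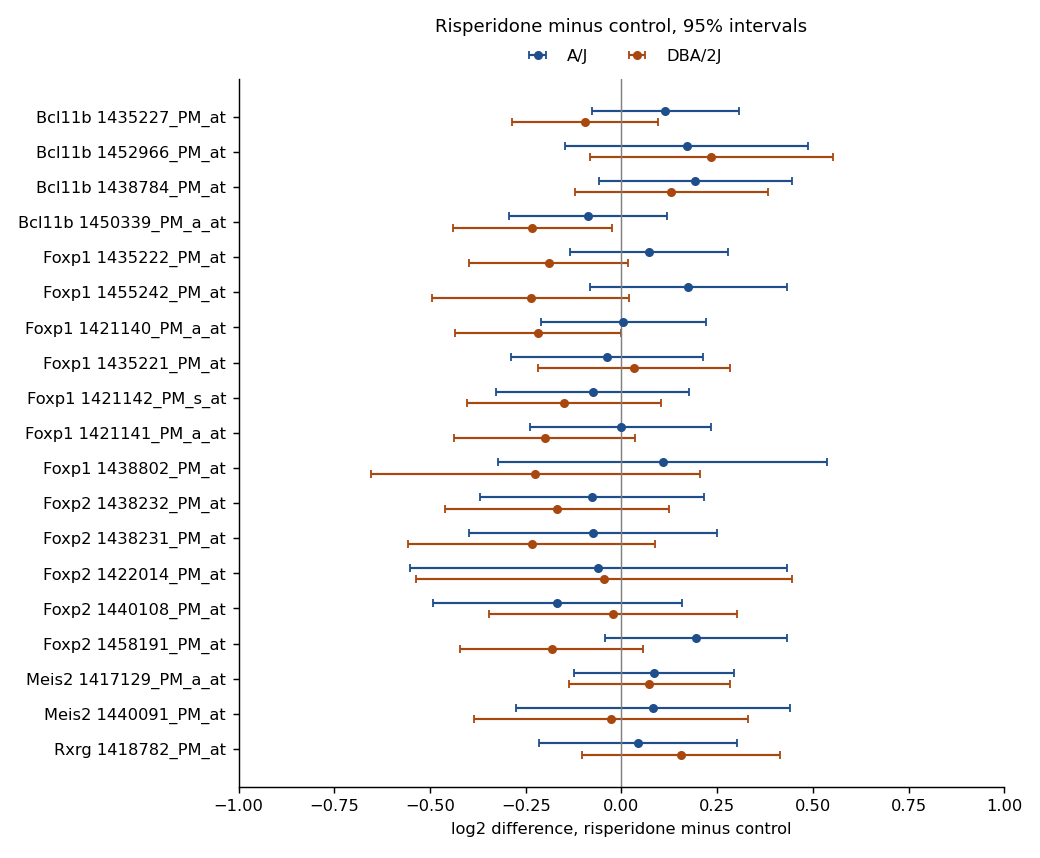
Risperidone minus control in log2 units (horizontal axis) for the 19 probe sets (rows), in A/J (blue) and DBA/2J (orange), with points for the difference of group means and bars for 95% intervals from the fit of all 16 arrays. In DBA/2J 14 of 19 points lie below 0 and in A/J 8 of 19, and no probe set passed the adjusted threshold.

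Bcl11b was read by 4 probe sets, all with mean levels above the median of the arrays. Its brightest, 1435227_PM_at, had levels of 9.10, 9.19, 9.02 and 9.17 in A/J controls and 9.18, 9.25, 9.28 and 9.23 in A/J risperidone mice (replicates 1 to 4). The A/J groups overlapped only through A/J risperidone replicate 1, and the difference was 0.12 ± 0.09 (SE; adjusted p = 0.979), a change of 8.30% with a 95% interval from -5.15% to 23.7%. In DBA/2J the levels were 9.37, 9.05, 9.40 and 9.22 in controls and 9.22, 9.19, 9.30 and 8.95 after risperidone, a difference of -0.09 ± 0.09 (adjusted p = 0.725). The DBA/2J groups overlapped over most of their range, and replicates within a group spread over 0.35 units.

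The 4 Bcl11b probe sets did not share a direction. In DBA/2J the probe set 1450339_PM_a_at had levels of 6.70, 6.70, 6.87 and 6.94 in controls and 6.62, 6.51, 6.75 and 6.40 after risperidone. This was the smallest p of any member for risperidone (difference -0.23 ± 0.10, unadjusted p = 0.0294, adjusted p = 0.422), and the groups still overlapped through risperidone replicate 3. On the same arrays 1452966_PM_at differed by 0.23 ± 0.15 (adjusted p = 0.580) and 1438784_PM_at by 0.13 ± 0.12 (adjusted p = 0.715), both higher after risperidone. In A/J 3 Bcl11b probe sets were higher, by 0.12 to 0.19, and 1450339_PM_a_at was lower, by a difference of -0.09. The direction of the brightest, 1435227_PM_at, was thus opposite in the 2 strains.

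Foxp1 had 7 probe sets, and their direction in DBA/2J was more uniform than in A/J: 6 of 7 were lower after risperidone in DBA/2J (median -0.20), against 3 of 7 in A/J (median 0.005). Its brightest probe set, 1435222_PM_at, had levels of 8.72, 8.78, 8.64 and 8.56 in DBA/2J controls and 8.33, 8.49, 8.64 and 8.48 in DBA/2J risperidone mice. Risperidone replicate 3 reached the control range and the other 3 lay below it, a difference of -0.19 ± 0.10 (adjusted p = 0.498). In A/J the same probe set had levels of 8.78, 8.79, 8.51 and 8.50 in controls and 8.91, 8.73, 8.55 and 8.68 after risperidone, a difference of 0.07 ± 0.10 (adjusted p = 0.994). The A/J controls fell into a higher and a lower pair, and the risperidone arrays lay from just above the lower pair to above the higher.

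The Foxp1 pattern in DBA/2J moved with a few arrays. DBA/2J risperidone replicate 1 was the lowest of its group on 6 of 7 Foxp1 probe sets, with 7.90 on 1455242_PM_at against 8.25 to 8.63 in the other 3, and replicate 2 was the highest on 6 of 7. Without the 5 arrays, all 7 Foxp1 probe sets were lower after risperidone in DBA/2J, at a median of -0.10. With 4 regional marker scores (striatal, cortex, thalamus and choroid plexus) in the fit, 3 of 7 were higher and 4 lower, at a median of -0.02. The regional scores themselves differed between the DBA/2J groups. The striatal marker mean was 7.16 to 7.35 after risperidone, against 7.04 to 7.12 in controls. The thalamus mean was 5.75 to 6.18 against 5.57 to 5.68, and the cortex mean 8.40 to 8.67 against 8.60 to 8.73. A score that differs between treated and control arrays can take up part of a treatment difference. The striatal score includes Drd1, Drd2 and Penk. Fits with these scores therefore cannot tell regional content from a response to risperidone. The mean over the 7 Foxp1 probe sets, tested as a single value per gene, differed by -0.17 ± 0.09 in DBA/2J (adjusted p = 0.505) and by 0.04 ± 0.09 in A/J (adjusted p = 0.999). One of the 7, 1421142_PM_s_at, carries the manufacturer's suffix for probes that may match transcripts of more than 1 gene.

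Foxp2 was lower after risperidone on all 5 of its probe sets in DBA/2J, by differences of -0.02 to -0.23, none past the threshold (smallest adjusted p = 0.567). The brightest, 1438232_PM_at, had levels of 6.61, 6.51, 6.35 and 6.01 in DBA/2J controls and 6.06, 6.38, 5.91 and 6.46 after risperidone, a difference of -0.17 ± 0.14. The spread inside each DBA/2J group, 0.60 and 0.55 units from lowest to highest array, was larger than the difference. In A/J its levels were 6.38, 6.44, 6.79 and 6.42 in controls and 6.40, 6.42, 6.62 and 6.28 after risperidone, a difference of -0.08 ± 0.14. Replicate 3 was the highest array of both A/J groups.

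Direction in A/J was not stable for Foxp2. There 4 of 5 probe sets were lower after risperidone, but 3 of 5 were higher without the 3 A/J risperidone arrays, and 5 of 5 were higher with the 4 regional scores in the fit. A/J control replicate 3 was the highest of its group on all 5 Foxp2 probe sets and had a thalamus marker mean of 7.01, against 5.69 to 6.17 in the other A/J controls. Without it the difference on 1438232_PM_at was 0.02. Of the 5 Foxp2 probe sets, 3 had mean levels below the median of the arrays, and the dimmest, 1458191_PM_at, lay between 3.51 and 4.28 on all 16.

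Meis2 was read by a bright and a dim probe set. The bright one, 1417129_PM_a_at, had levels of 7.64, 7.62, 7.52 and 7.74 in A/J controls and 7.75, 7.74, 7.85 and 7.52 after risperidone. In DBA/2J it had 7.53, 7.69, 7.38 and 7.86 in controls and 7.81, 7.63, 7.66 and 7.65 after risperidone. The differences were 0.09 ± 0.10 in A/J and 0.07 ± 0.10 in DBA/2J, with adjusted p of 0.992 and 0.816, and the groups overlapped in both strains. The dim probe set, 1440091_PM_at, differed by 0.08 ± 0.17 in A/J and -0.03 ± 0.17 in DBA/2J.

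Rxrg, the retinoid X receptor of the set, had 1 probe set, 1418782_PM_at, with a mean level of 5.24, below the median of the arrays. Its levels were 5.23, 5.03, 5.20 and 5.42 in A/J controls and 5.27, 5.26, 5.36 and 5.16 after risperidone. In DBA/2J they were 5.16, 4.84, 5.39 and 5.28 in controls and 5.57, 5.14, 5.46 and 5.12 after risperidone. After risperidone 2 DBA/2J arrays lay above every DBA/2J control and 2 lay inside the control range. The differences were 0.04 ± 0.12 in A/J (adjusted p = 0.997) and 0.15 ± 0.12 in DBA/2J (adjusted p = 0.661), the latter a change of 11.3% with a 95% interval from -6.92% to 33.2%.

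**Figure D3:**
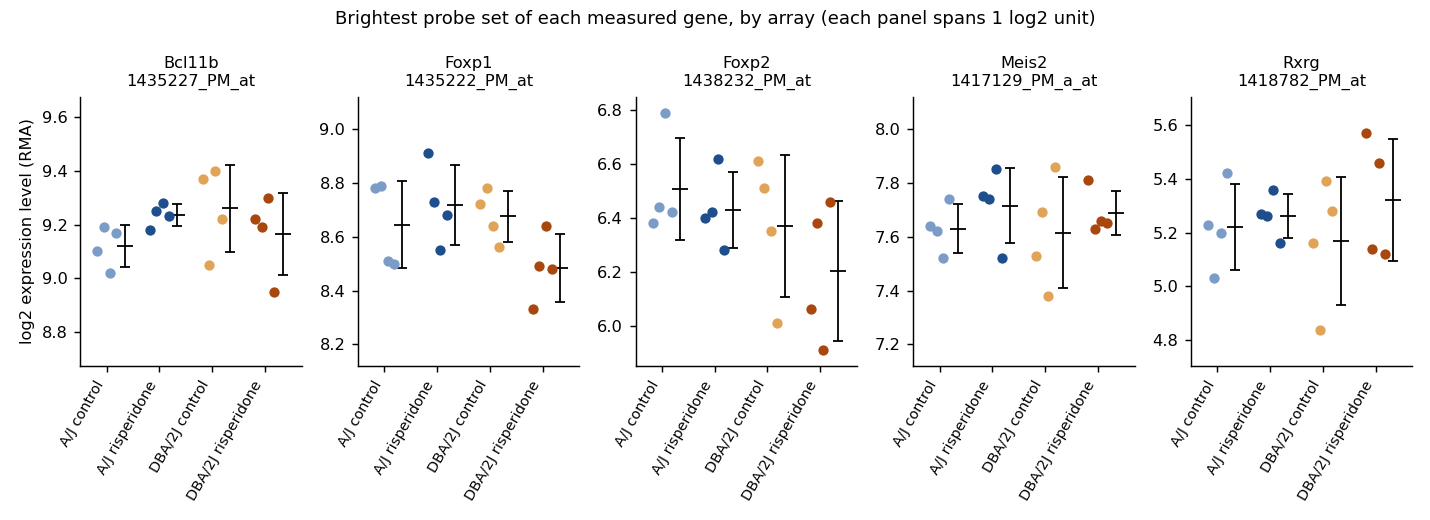
Log2 level (vertical axis; each panel spans 1 unit) of the brightest probe set of Bcl11b, Foxp1, Foxp2, Meis2 and Rxrg in each array, grouped by strain and treatment, with black bars for the mean ± SD of 4 arrays. Groups overlap in every panel, and the highest Foxp2 value is A/J control replicate 3 at 6.79.

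The direct test of whether the risperidone effect differed between strains found 0 of 19 probe sets past the adjusted threshold (0% of all probe sets passed) and 2 of 19 at an unadjusted p under 0.05 (9.19% of all). Those 2 were Foxp1 1455242_PM_at, whose DBA/2J effect was lower than its A/J effect by a difference of -0.41 ± 0.17 (unadjusted p = 0.0280, adjusted p = 0.506), and Foxp2 1458191_PM_at, with -0.38 ± 0.16 (unadjusted p = 0.0304, adjusted p = 0.509). For this test the 95% intervals were wider, and 7 of 19 lay within 0.5 log2 units of 0. The median difference of the members was -0.11, with 14 of 19 below 0. Without the 3 A/J risperidone arrays the median was -0.15, and without the 5 arrays it was -0.08. Without DBA/2J risperidone replicate 1 it was -0.09, with 12 of 19 below 0. Over the 27 alternatives run for this test, 14 of 19 probe sets changed direction under some setting. Differences of the 2 named probe sets without these arrays are not given here. The mean of both strains' risperidone effects gave 0 of 19 at the adjusted threshold (0.0266% of all probe sets) and 1 of 19 unadjusted (6.9% of all). Its smallest member p was again that of Bcl11b 1450339_PM_a_at, at -0.16 ± 0.07 (unadjusted p = 0.0335, adjusted p = 0.694).

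No member passed the test between the strains either, in control or in risperidone mice. In control mice 0 of 19 passed the adjusted threshold, where 3.87% of all probe sets did, and in risperidone mice 0 of 19, where 0.782% did. No member had strain groups that lay wholly apart (9.33% of all probe sets in control mice and 7.68% in risperidone mice). In control mice 9 of 19 members were lower in DBA/2J (46.2% of all probe sets). At an unadjusted p under 0.05 there was 1 of 19 in control mice (17.7% of all) and 4 of 19 in risperidone mice (9.43% of all). The strain comparisons share their arrays with the risperidone comparisons, so these values are set side by side and were not combined.

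In control mice the smallest p belonged to the dim Foxp2 probe set 1458191_PM_at, with levels of 3.85, 3.51, 4.01 and 3.59 in A/J and 4.28, 3.90, 3.89 and 3.94 in DBA/2J. The groups overlapped through A/J control replicate 3, and DBA/2J was higher by 0.26 ± 0.11 (unadjusted p = 0.0329, adjusted p = 0.234). The other Foxp2 probe sets were split: 1438231_PM_at was higher in DBA/2J by 0.17 ± 0.15, while 1438232_PM_at differed by -0.14 ± 0.14, 1422014_PM_at by -0.26 ± 0.23 and 1440108_PM_at by -0.27 ± 0.16. Foxp1 had 5 of 7 probe sets higher and 2 lower in DBA/2J controls, by -0.19 to 0.21, and Bcl11b had 2 higher and 2 lower, by -0.15 to 0.14.

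In risperidone mice the direction was more uniform. Here 15 of 19 probe sets were lower in DBA/2J, against 47.9% of all probe sets. The median difference of the members was -0.13 against 0.005 over all probe sets. Averaged over the probe sets of each gene, it was -0.12 for Bcl11b, -0.18 for Foxp1 and -0.14 for Foxp2. The same average was 0.08 for Meis2 and 0.06 for Rxrg. All 7 Foxp1 probe sets were lower in DBA/2J, by differences of -0.07 to -0.28, and 3 of the 4 members with an unadjusted p under 0.05 were Foxp1 probe sets (1435222_PM_at, 1455242_PM_at and 1421142_PM_s_at; smallest adjusted p = 0.451). The other was Bcl11b 1450339_PM_a_at, with levels of 6.87, 6.94, 6.90 and 6.75 in A/J risperidone mice and 6.62, 6.51, 6.75 and 6.40 in DBA/2J risperidone mice, a difference of -0.30 ± 0.10 (unadjusted p = 0.00763, adjusted p = 0.269). The groups touched only at 6.75. Without the 3 A/J risperidone arrays 17 of 19 members were lower and all 7 Foxp1 probe sets were, at a median of -0.065. Without the 5 arrays 15 of 19 members were lower and 5 of 7 Foxp1 probe sets were, at a median of -0.03.

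**Figure D4:**
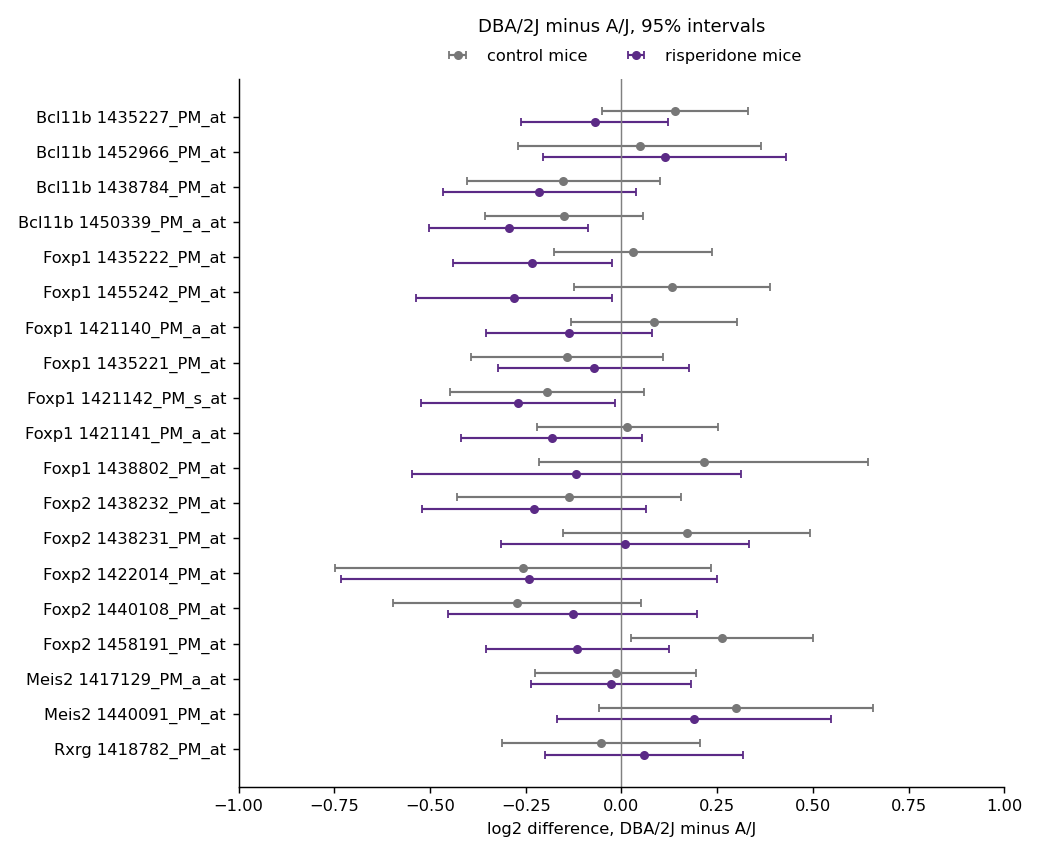
DBA/2J minus A/J in log2 units (horizontal axis) for the 19 probe sets (rows), in control mice (grey) and risperidone mice (purple), with points for the difference of group means and bars for 95% intervals. In control mice 9 of 19 points lie below 0 and in risperidone mice 15 of 19, and no probe set passed the adjusted threshold.

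Probe sets of the same gene varied together across arrays of a group to different degrees. After each group's mean was taken away, the 21 pairs of Foxp1 probe sets correlated over the 16 arrays at 0.10 to 0.86 (Pearson r, median 0.48), with the highest value between 1455242_PM_at and 1421141_PM_a_at. The 6 Bcl11b pairs ran from 0.16 to 0.69 and the 10 Foxp2 pairs from -0.01 to 0.84, the highest between 1438232_PM_at and 1440108_PM_at. These values describe the same 16 RNA samples read by different probes, so array quality and dissection are shared by every pair.

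Between Foxp2 and Bcl11b, 15 of 20 pairs of probe sets correlated below 0, and between Foxp2 and Foxp1 22 of 35 did. The lowest correlation was -0.86, between Bcl11b 1450339_PM_a_at and Foxp2 1440108_PM_at, and Bcl11b 1452966_PM_at with Foxp2 1438231_PM_at gave -0.81. In A/J controls, replicate 3 was the highest of its group on 5 of 5 Foxp2 probe sets and the lowest on 5 of 7 Foxp1 probe sets. A/J risperidone replicate 3 was the highest on 4 of 5 and the lowest on 5 of 7. DBA/2J risperidone replicate 4 was the highest on 4 of 5 Foxp2 probe sets and the lowest on 3 of 4 Bcl11b probe sets. The same 3 arrays had the highest thalamus marker mean of their groups (7.01, 6.47 and 6.18) and the lowest cortex marker mean (8.38, 8.52 and 8.40). They also had the highest oligodendrocyte marker mean of their groups (9.10, 8.72 and 8.80). On them the thalamic factor gene Tcf7l2 reached 8.98, 7.89 and 7.77, the highest value of each group. In DBA/2J controls, where the thalamus mean spanned only 5.57 to 5.68, replicate 4 had the highest thalamus and the lowest cortex mean (8.60) but was the lowest on 3 of 5 Foxp2 probe sets. Beyond the fits with regional scores, the part of regional content in the levels of the members was not tested.

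**Figure D5:**
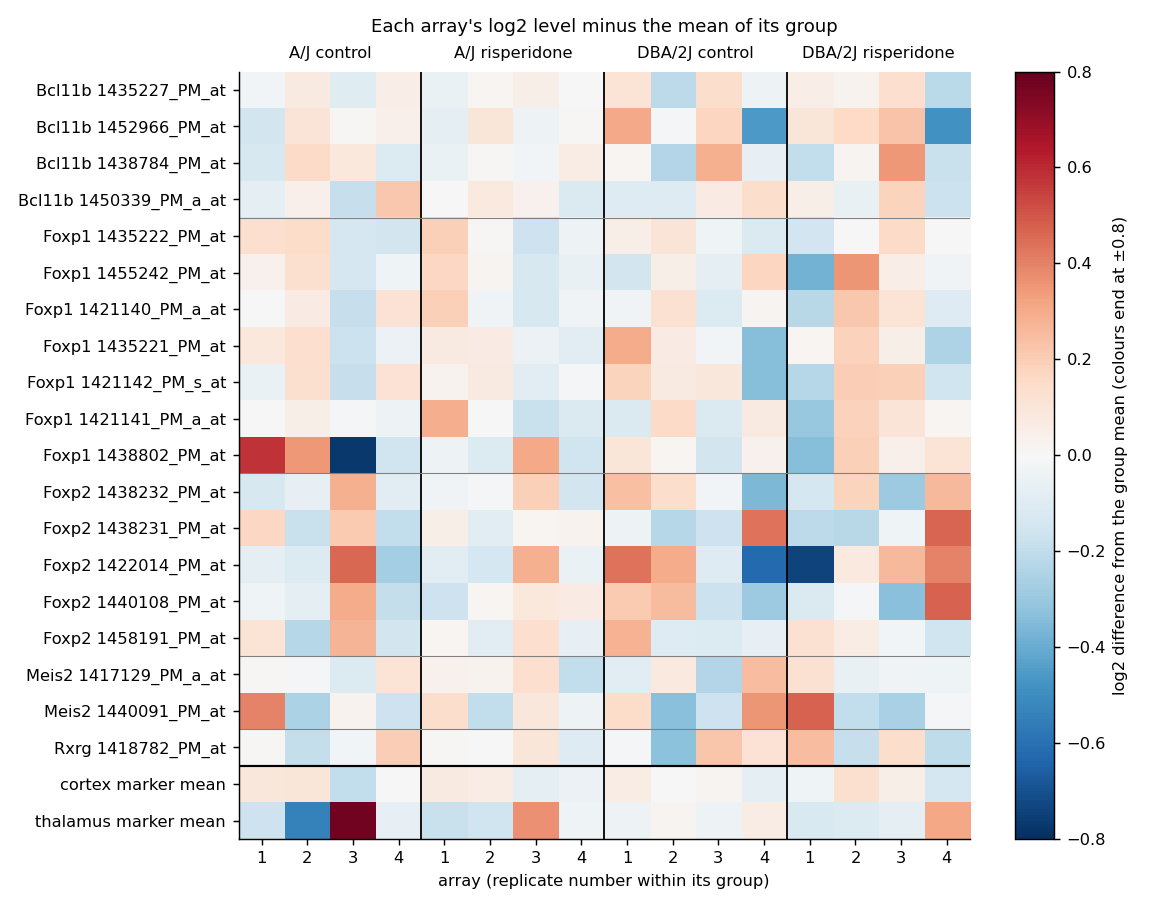
Log2 level of each array minus the mean of its group (colour) for the 19 probe sets and for the mean of the cortex and thalamus markers (rows), by array (columns, replicate numbers within 4 groups). A/J control replicate 3 is red on the 5 Foxp2 rows and on the thalamus row and blue on the cortex row and on most Foxp1 rows, with the lowest Foxp1 level there 4.80 on 1438802_PM_at.

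For each member, the genes whose brightest probe set followed its own most closely over the 16 arrays, after group means were taken away, were listed as a description, among about 9946 genes with a level at or above the median. Bcl11b (1435227_PM_at) was followed by Ptk2b (r = 0.91), a calcium-activated tyrosine kinase, Iqgap2 (0.89) and Sntb2 (0.88). Foxp1 (1435222_PM_at) was followed by Kcns1 (0.91), a modulatory potassium channel subunit, Gm20319 (0.85) and Gpr158 (0.83), an orphan receptor. Foxp2 (1438232_PM_at) was followed by Mpeg1 (0.92), a macrophage perforin, Rap1gds1 (0.89) and Qdpr (0.88), an enzyme of tetrahydrobiopterin recycling. Without the 2 arrays farthest from the median of the member, r was 0.81 for Ptk2b, 0.91 for Kcns1 and 0.87 for Mpeg1. Meis2 (1417129_PM_a_at) was followed by Greb1l (0.88), Fgfrl1 (0.85) and Tra2b (0.82), and Rxrg by Prkag2 (0.91), Slc26a4 (0.89) and Nrp1 (0.88). These are the highest of all values searched and were chosen for being so.

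Close relatives of the members also gave no called gene. Of 15 listed relatives (Bcl11a, other Foxp, Meis, Pknox, Pbx, Rxr and Rar genes) 14 were measured by 28 probe sets. In each of the 6 comparisons 0 passed the adjusted threshold, and 0 to 3 of 28 had an unadjusted p under 0.05. Over all probe sets, 0% to 3.87% passed the adjusted threshold, by comparison, and 5.51% to 17.7% had an unadjusted p under 0.05. The median difference of the relatives after risperidone was 0.055 in A/J and -0.005 in DBA/2J, against -0.01 and 0.01 over all genes. The closest were Bcl11a 1456632_PM_at and Rxrb 1416990_PM_at between strains in control mice. The Bcl11a probe set was chosen from 4 for its smallest p, and differences of the others between control strains are not given here. On the chosen probe set Bcl11a, the paralogue of Bcl11b, was higher in DBA/2J by 0.31 ± 0.09 (adjusted p = 0.0609). Rxrb, a partner receptor in retinoid signalling, was lower there by a difference of -0.32 ± 0.09 (adjusted p = 0.0654). In the test of the strain difference in risperidone effect the same probe sets had differences of -0.48 ± 0.13 (adjusted p = 0.349) and 0.45 ± 0.13 (adjusted p = 0.378).

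Of 33 other transcription factors of striatal development and identity 31 were measured, by 71 probe sets, and 0 genes passed in the risperidone comparisons (unadjusted, 8 of 71 probe sets in A/J, where 5.51% of all did so, and 15 of 71 in DBA/2J, where 10.7% did). Their median difference was -0.0625 in DBA/2J and -0.045 in A/J. The smallest p for risperidone was that of Nr4a1, an activity-induced nuclear receptor, in DBA/2J: its level was 8.52 ± 0.16 (SD, n = 4) in controls and 7.86 ± 0.26 after risperidone, a difference of -0.66 ± 0.13 (SE; adjusted p = 0.0956) with groups that did not overlap. Sox4, a factor of immature neurons, followed with -0.52 ± 0.13 (adjusted p = 0.177) on 1419157_PM_at, the 1 of its 5 probe sets with the smallest p. Between strains in control mice 2 of the 31 genes passed, each on 1 of its probe sets, which is 2 of 71 probe sets where 3.87% of all passed. Sox11 1436790_PM_a_at lay at 6.93 to 7.13 in A/J controls and at 6.23 to 6.74 in DBA/2J controls (difference -0.48 ± 0.11, adjusted p = 0.0145), while its other 5 probe sets did not pass, at -0.37 to 0.09. Tle4 1430384_PM_at, of a corepressor gene, was higher in DBA/2J by 0.43 ± 0.10 (adjusted p = 0.0210), and its other 2 probe sets differed by 0.02 and 0.03.

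Of 25 co-regulators, mostly of the NuRD, NCoR and CBP complexes that work with these factors, 22 were measured by 44 probe sets. Their median difference per gene after risperidone was 0.05 for DBA/2J and -0.03 for A/J. The smallest p for risperidone was that of Nr2f2 in DBA/2J, on 1416160_PM_at, 1 of its 4 probe sets. Its level was 4.89 ± 0.08 (SD) in controls, below the median of all probe set means (5.67). After risperidone it was 5.77 ± 0.55 (adjusted p = 0.172), with groups that did not overlap and a wider spread among the treated arrays. Hdac2 followed there on 1439704_PM_at, 1 of its 2 probe sets, with -0.29 ± 0.08 (SE; adjusted p = 0.237). The 2 co-regulators that passed did so between strains in control mice, on 2 of the 44 probe sets, where 3.87% of all probe sets passed. Both were lower in DBA/2J: Mta3 1451352_PM_s_at by a difference of -0.38 ± 0.09 (adjusted p = 0.0213) and Gatad2a 1455505_PM_at by -0.50 ± 0.13 (adjusted p = 0.0360). Their other probe sets did not pass, at -0.05 for Mta3 and -0.30 to 0.00 for Gatad2a. The calls of Sox11, Tle4, Mta3 and Gatad2a were all lost with the 4 regional scores in the fit (adjusted p of 0.449, 0.338, 0.331 and 0.946). The differences there were -0.50 ± 0.17 for Sox11, 0.44 ± 0.14 for Tle4 and -0.43 ± 0.13 for Mta3, about as large as before with wider errors, and -0.10 ± 0.18 for Gatad2a. Leaving out 1 array also ended 3 of them. Tle4 was lost without A/J control replicate 3 or 4 or DBA/2J control replicate 1, 2 or 3 (adjusted p 0.0514 to 0.0749), and Mta3 without A/J control replicate 2, 3 or 4 or DBA/2J control replicate 1 (0.0518 to 0.0714). Gatad2a was lost without A/J control replicate 1, 2 or 3 or DBA/2J control replicate 3 or 4 (0.0537 to 0.118). The thalamus marker mean was 5.69 to 7.01 in A/J controls and 5.57 to 5.68 in DBA/2J controls.

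Genes of retinoid supply, which set the ligand of the Rarb and Rxrg pair, gave 0 called genes in the 6 comparisons, with 17 of 20 listed genes measured by 24 probe sets (0 to 4 of 24 at an unadjusted p under 0.05). Over all probe sets, 0% to 3.87% passed the adjusted threshold, by comparison, and 5.51% to 17.7% had an unadjusted p under 0.05. Rdh11, a retinaldehyde reductase, had the smallest p in A/J (-0.37 ± 0.14, adjusted p = 0.806), and Bco1, which cleaves carotene to retinal, in DBA/2J (-0.43 ± 0.15, adjusted p = 0.332). Ttr, the plasma and choroid plexus carrier of retinol-binding protein, ranged from 6.0 to 11.97 over the 16 arrays on its brighter probe set. Its difference between control strains was -3.34 ± 1.11 on 1455913_PM_x_at (adjusted p = 0.108), and the choroid plexus marker mean, which includes Ttr, was 4.60 to 5.50 in A/J controls and 4.47 to 4.70 in DBA/2J controls. The part of choroid plexus content in this difference was not tested.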

How the data were processed

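Per the submitters' processing notes, the authors deposited RMA values, which are log2 levels per probe set on Affymetrix mouse PM arrays, background-corrected, quantile-normalised and summarised by that method. RMA removes shifts of whole arrays. Genes were named by the platform annotation, and the genome build of the array was not given in the sources used here. The file holds 45141 probe sets, of which 104 are controls of the array and were not tested. The 4 group means were fitted to all 16 arrays with limma 3.58.1 in R 4.3.3 (lmFit, eBayes), 6 comparisons were drawn, and p-values were adjusted over 45037 probe sets. No detection calls or depths were used, and 4 arrays per group limit the precision. The fit was tested on simulated data. Named genes were all member probe sets and the 3 genes most like each member. From each list they came from the called genes, or from the 2 with the smallest p where a comparison had none called. Not every gene so chosen is named. The members and lists were chosen with earlier results of these data known. P-values set a difference against the spread between arrays labelled as biological replicates. This spread was pooled over the 4 groups and moderated over all probe sets, and it includes the arrays that stood apart. Same-numbered replicates deviated together only slightly more than others, which cannot decide whether they are pairs, and numbers were not used to pair samples.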

Additional observations from a re-analysis of the deposited data

Results flagged for a closer look

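In 3 of the 76 groups of 4 arrays examined (19 probe sets in 4 groups), 1 array lay far from the other 3 by Dixon's criterion. At a chance rate of 1 in 20 about 3.8 such groups arise. Foxp2 1438232_PM_at stood at 6.79 in A/J control replicate 3, against 6.38 to 6.44 in the other A/J controls. Foxp2 1458191_PM_at, the dimmest member, stood at 4.28 in DBA/2J control replicate 1, against 3.89 to 3.94. Meis2 1417129_PM_a_at stood at 7.81 in DBA/2J risperidone replicate 1, against 7.63 to 7.66.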

How the results depend on the processing

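No member was called in any of the 6 comparisons under any of the 27 or 28 alternatives run for each, with smallest adjusted p-values of 0.571 (risperidone in A/J), 0.254 (risperidone in DBA/2J), 0.527 (mean effect), 0.302 (strain difference in effect), 0.112 (strain in control mice) and 0.127 (strain in risperidone mice). Directions of these small differences were less stable. For risperidone in A/J, Foxp1 1435222_PM_at became -0.081 with the DBA/2J share as a covariate and -0.095 without the 3 or the 5 arrays. Foxp2 1438232_PM_at became 0.031 with 4 regional scores, 0.051 with the share and 0.11 without the 3 or the 5 arrays. Meis2 1417129_PM_a_at became -0.027 and Rxrg 1418782_PM_at -0.082 with the regional scores. For risperidone in DBA/2J, Foxp1 1421140_PM_a_at became 0.0069 with those scores. Between control strains the scores gave -0.055 for Foxp1 1435222_PM_at, 0.18 for Foxp2 1438232_PM_at and 0.031 for Rxrg 1418782_PM_at, and a second quantile normalization gave 0.015 for Meis2 1417129_PM_a_at. The cause was not tested.

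Leaving out each of the 16 arrays in turn turned the direction of some differences of the brightest probe sets. The ranges were -0.14 to 0.017 for Foxp2 1438232_PM_at, -0.021 to 0.11 for Rxrg 1418782_PM_at (risperidone in A/J), and -0.0058 to 0.15 for Meis2 1417129_PM_a_at (risperidone in DBA/2J). Between control strains they were -0.018 to 0.078 for Foxp1 1435222_PM_at, -0.097 to 0.063 for Meis2 1417129_PM_a_at and -0.13 to 0.057 for Rxrg 1418782_PM_at.

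With the replicate block, 0 of 19 members were called in each comparison. Same-numbered arrays correlated above 0.1 in 1 or 2 of 4 pairs per comparison. Their mean correlation was 0.025 to 0.074 by comparison, against -0.025 to -0.008 for arrays of other numbers. With 4 pairs per comparison, these values cannot decide whether the numbers pair the samples. Probe sets at or above the median level left 13 of 19 members. Between control strains, the calls of Sox11, Tle4, Mta3 and Gatad2a were lost in the fit of only the 8 control arrays (adjusted p of 0.0776, 0.0824, 0.0862 and 0.122), where the differences are the same by construction and the errors larger. Without the 5 arrays those of Sox11 (0.0829), Mta3 (0.0600) and Gatad2a (0.133) were lost.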
